A study of Schizosaccharomyces pombe with 2 samples.

Results

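Near-silent coding genes of fission yeast were examined in direct RNA sequencing libraries of vegetative cells. A coding gene (identifier starting with SPA, SPB or SPC on chromosomes I, II and III) was taken as near-silent when both libraries together held fewer than 10 of its reads. Genes in the outer 60 kb of the ends of chromosomes I and II were left out. Of the 5061 coding genes outside these end regions, 145 (2.87%) met the rule, and 4916 did not. The end regions held a further 86 coding genes, 61 of them under the same limit, which were not described here. The genes were thus selected on their reads in these same libraries, and their low values are given as a description and were not tested. In bulk RNA, a low count from few cells and one from little RNA per cell cannot be told apart.

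The cells were haploid h- Schizosaccharomyces pombe of genotype leu1-32, pat1-L95G::kanR, grown vegetatively at 30 °C in EMM, a minimal medium. Both libraries carry the pat1-L95G allele, which makes the Pat1 kinase sensitive to an ATP analogue. Pat1 blocks meiosis while it is active, and these samples are labelled as vegetative. There were 2 biological replicates of this single group and no second condition, so no result compares conditions. Total RNA was depleted of rRNA and given poly(A) tails in vitro, and a nanopore then read the RNA molecules themselves.

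The libraries held 12871729 reads over 12684 features in replicate 1 and 12579850 in replicate 2. The cell type markers matched the labels. The M-factor gene mfm1, which M (h-) cells express, had 4405 and 4270 reads, and the 5 other M cell genes examined had between 55 and 2733 reads per library. The P cell gene map2, for the P-factor pheromone, had 2 and 0 reads, and map3, for the M-factor receptor, had 9 and 14. Among genes of meiotic entry, mei3 had 5 and 4 reads and mei4 had 12 and 10, whereas mes1 had 74 and 83.

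Fission yeast keeps most of its meiotic programme off during growth. Nitrogen starvation and mating bring about Mei3, which inhibits Pat1, and this frees the RNA-binding protein Mei2 to start meiosis. The forkhead factor Mei4 then switches on many genes of the meiotic divisions and of spore formation through promoter elements with the core GTAAACA. A second layer acts on RNA: Mmi1 binds copies of the hexamer TNAAAC in the transcripts of some meiotic genes and directs them to the nuclear exosome in growing cells.

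The Mei4 core stood upstream of 11 of the 14 near-silent genes that belong to lists of known meiotic and sporulation genes. It was also present in 14 of the 38 genes of these lists above the read limit, and in 16.7% of all coding genes. One match of each of the 11 is printed here to show what these promoters share, and a match is a run of letters, not a shown binding site. The sequences are from RefSeq assembly ASM294v3, read 5′ to 3′ on the strand of the gene. The capitals mark GTAAACA or, where the match lies on the opposite strand, its reverse complement TGTTTAC.
spo4, kinase of the second meiotic division, chrII:3827070-3827096, plus strand: gtttggcgaaGTAAACAaacaaacaaa
spo6, partner of Spo4, chrII:3103031-3103057, plus strand: aaatatttgaGTAAACAaacaaaatca
rem1, meiotic cyclin, chrII:1954879-1954905, minus strand: ttgactcactGTAAACAaacagaacct
moa1, meiotic kinetochore protein, chrI:3729079-3729105, minus strand: tggtaaaaatGTAAACAaaaccgcatt
mfr1, activator of the anaphase-promoting complex, chrII:194464-194490, plus strand: agcaaatgttTGTTTACtgcagtcatt
mei3, inhibitor of Pat1, chrII:719348-719374, plus strand: gagtttgattTGTTTACgctgctctct
mcp6, horsetail movement protein, chrII:430315-430341, minus strand: tttttggtggTGTTTACgtatatctca
rec7, recombination protein, chrIII:1549149-1549175, minus strand: actcataaatGTAAACAaaagtaatac
mde2, recombination protein, chrII:3764716-3764742, plus strand: tgagtttgttTGTTTACattccatacc
dmc1, meiotic recombinase, chrI:3382065-3382091, plus strand: acgcgttcatTGTTTACatgtagctgc
meu14, forespore membrane protein, chrII:4066098-4066124, plus strand: aacagctgttTGTTTACgaaattctta

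The reads of the 145 genes were few. They summed to 212 in replicate 1 and 232 in replicate 2, which is 0.00165% and 0.00184% of the libraries. The 4916 other coding genes held 26.2% and 26.3%. The highest count of a near-silent gene was 5 in replicate 1 and 7 in replicate 2. No read was found in either library for 34 genes. A count of 0 allows up to 3 reads, or 0.233 CPM (reads scaled to a library total of 1000000) in replicate 1 and 0.238 CPM in replicate 2. Reads were present in both libraries for 77 genes, in replicate 1 alone for 22 and in replicate 2 alone for 12. These limits cover counting error only.

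Per kb of feature, the near-silent genes had a median of 2.97 summed reads, against 137 for the other coding genes. The limit did not fall in a gap of the distribution. At 9 reads stood 3 genes: mei3 (5 and 4), mcp6 (3 and 6) and the uncharacterised SPAC30D11.02c (2 and 7). At 10 reads, just outside, stood 5 genes, among them mug130 (4 and 6), SPAC6C3.03c (6 and 4) and spo13 (5 and 5), for a spindle pole body protein of sporulation. The limit is a count per gene, not per length, and 13 near-silent genes exceeded 10 reads per kb. The highest was mat1-Mi at 54.3 per kb, on a feature of 129 nt.

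**Figure D1:**
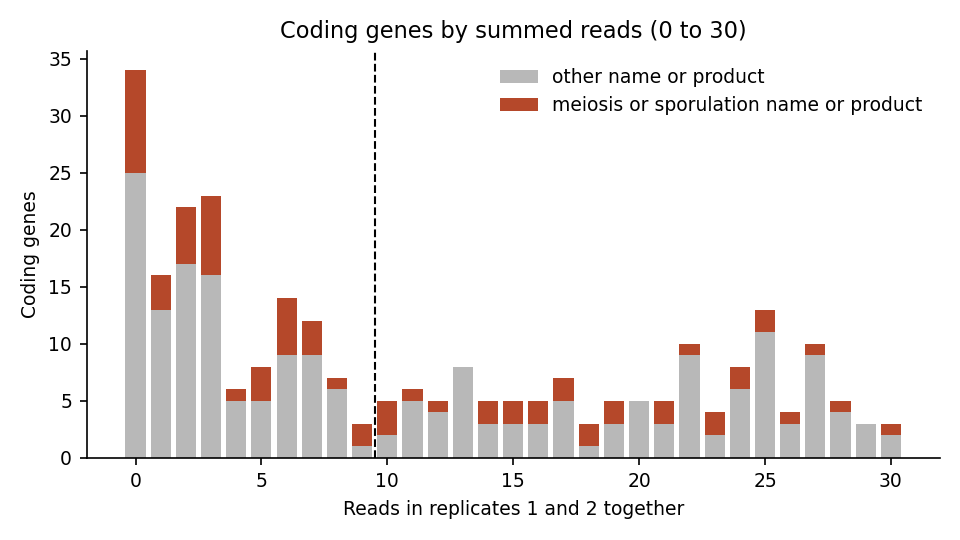
Number of coding genes outside the end regions (vertical axis) with 0 to 30 reads in both libraries together (horizontal axis). The dashed line marks the limit of fewer than 10 reads, and dark segments are genes with a meiosis or sporulation name or product. The bar at 0 reads holds 34 genes, 9 of them with such a name.

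The replicates were compared by the split of each feature's reads between the libraries, which the rule did not use. In a two-sided exact binomial test of each count against the library totals, with Benjamini-Hochberg adjustment over the 10319 features with a read, 253 features (2.45%) differed between the libraries at an adjusted p under 0.05. Of these, 143 were higher in replicate 1 and 110 in replicate 2, whereas TMM factors gave 244 and 49 of 293, and DESeq2 size factors 194 and 66 of 260. At fewer than 10 reads no near-silent gene could pass: with 9 reads the lowest p that this test could give was 0.00176, or 0.0656 after adjustment. That none of the 111 near-silent genes with a read was called therefore says nothing about their stability, and 2 had an unadjusted p under 0.05. What is tested is the pair of libraries, not a condition.

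The largest ratio between the libraries belonged to mat1-Mi, with 0 reads in replicate 1 and 7 in replicate 2 (log2 ratio of replicate 1 over replicate 2 -3.94, adjusted p = 0.183 in the exact binomial test). Mi is an M-specific factor encoded at the mating-type locus. Its silenced copy mat3-Mi had 2 and 0 reads. The 2 features are near-identical copies and the treatment of reads that map to both is not given in the sources used here, so the count of either is uncertain. The next ratios were those of SPAC9E9.17c and mug42, with 4 and 0 reads each, of mpf1 (0 and 3), a meiotic PUF family RNA-binding protein, and of SPAC17A2.10c (3 and 0), which was tied with other genes of the same counts. The other gene with an unadjusted p under 0.05 was atf31 (1 and 7, adjusted p = 0.474 in the exact binomial test), which encodes a bZIP transcription factor.

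By RefSeq product, 55 of the 145 genes (37.9%) were uncharacterised, against 6.22% of the other coding genes. A meiosis or sporulation name or product was found for 39 (26.9%, with the wtf genes), against 3.40%. Of the remainder, 18 were enzymes (12.4%, against 37.6%) and 16 had other products. No near-silent gene encoded a ribosomal protein, among 145 such genes, or carried a mitochondrial product, among 98. These shares follow from genes selected for low reads and are given as counts.

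Many of the meiotic names record when a gene is expressed. Of 19 genes named meu (meiotic expression upregulated), 7 were near-silent, and of 91 named mug (meiotically upregulated genes), 14 were. Both names were given for expression in meiosis and say little of function. The majority of the 206 genes with a meiotic name or product lay above the limit: 167 genes, with a median of 92 summed reads.

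In the list of recombination and chromosome axis genes, 5 of 17 were near-silent. rec15, needed for meiotic DNA breaks, had 1 and 0 reads, and mde2, which acts in the same step, had 0 and 1. rec27, a component of the linear elements that form the meiotic chromosome axis, had 1 and 2 reads. The recombinase gene dmc1 had 2 and 0, and rec7 had 1 and 5. These counts ranged from 1 to 6 in sum, so that none of the 5 was at 0 in both libraries. The other 12 genes had 18 to 151 summed reads, among them rec8, the meiotic cohesin subunit, with 21 and 22, hop1, an axis protein, with 13 and 10, and rec6 with 64 and 87.

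In the list of meiotic regulators and divisions, 7 of 14 were near-silent. spo4, which encodes the kinase of a complex needed for the second division, and rem1, a meiosis-specific cyclin, had no read in either library. spo6, the partner of Spo4, had 1 and 2. mfr1 had 1 and 1, and moa1, which orients sister kinetochores in the first division, had 2 and 1. The early regulator mei3, at 5 and 4, and mcp6, at 3 and 6, were at the upper edge of the limit. Among the 7 genes above it, mei4 had 12 and 10 reads, ssm4 11 and 10, and crs1 17 and 18, and the highest was mes1, an inhibitor of the anaphase-promoting complex, at 157 in sum.

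In contrast, 2 of 21 genes of the forespore membrane and spore wall were near-silent. meu14, whose protein marks the leading edge of the forespore membrane, had 2 and 3 reads, and the sporulation septin spn6 had 3 and 4. The list had a median of 157 summed reads and reached 588. Of the other sporulation septins, spn5 had 8 and 11 reads, spn7 29 and 39, and spn2 161 and 200. The medians of the recombination and regulator lists were 25 and 12, all below the median of 264 over the other coding genes. That median leaves out the near-silent genes, whereas the list medians include them. Of the 25 wtf genes, which include spore-killing meiotic drivers and their suppressors, 2 were near-silent: the pseudogene wtf2 (2 and 4) and wtf16 (3 and 4). The family had a median of 60 summed reads. wtf genes are close paralogs, and reads may have been split among them.

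The longest genes with no read in either library included several regulators of meiosis. The longest were mug27 (2344 nt), a meiotic protein kinase, and SPBC28E12.02 (2304 nt), a predicted RNA-binding protein of the BICC1 family. They were followed by mde3, another protein kinase (1859 nt), spo4 (1783 nt), fzr3, a meiotic coactivator of the anaphase-promoting complex (1592 nt), and mug131 (1465 nt). The remainder of the 10 longest were pfl7, a cell surface glycoprotein of the DIPSY family (1437 nt), the esterase gene SPAPB1A11.02 (1367 nt), mug93 (1365 nt) and the L-lactate dehydrogenase gene SPAPB1A11.03 (1333 nt). Of the 34 genes at 0, 9 had a meiotic name or product, a share close to that over all 145 near-silent genes (39, 26.9%).

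The small product groups held genes of nutrient use and of mating. Transport and transcription were no more frequent than among the other coding genes, at 3.45% against 4.27% and 2.76% against 2.89%. Mating, with 2 genes, was at 1.38% against 0.102%. Transport held 5 genes: SPAC869.03c, for a urea transporter (1 and 1), the hexose symporter gene ght6 (3 and 1), mfc1 (4 and 2), the ion channel gene trp663 (0 and 1) and SPCC576.17c, for a vitamin B6 transporter (4 and 3). Genes of transcription were atf31, atf21 (1 and 1), mat1-Mi and cuf2 (0 and 1), a copper-regulated factor known from meiotic cells. Mating held map2 (2 and 0) and mat3-Mi. Of the 5 pseudogenes, SPBPB21E7.06, SPBPB10D8.03 and SPBC31A8.02 were at 0 in both libraries, SPCP20C8.03 had 1 and 0, and wtf2 is given above. SPAC11D3.20 (1 and 2), at 87 nt the shortest, had no RefSeq match.

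Near-silent genes were short. Their median feature length, introns included, was 824 nt against 1806.5 nt for the other coding genes, and the lower and upper quartiles were 409 and 1455 nt against 1231.75 and 2580.5 nt. Features under 600 nt made up 36.6% of them (53 of 145), against 4.64%. The annotation of the ends differed as well. No untranslated region was annotated for 57 of the 144 genes with a coding region (39.6%), against 2.87%, so that their features ended at the start and stop codons. The coding regions alone had a median of 546 against 1152 nt. Among genes with an untranslated region annotated, the median feature length was 1249 against 1830 nt, and that of the coding region 693 against 1167 nt.

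Length and function went together. The 55 uncharacterised genes had a median length of 409 nt, against 1163.5 nt for the 306 other uncharacterised coding genes. The 39 meiotic ones had a median of 1365 nt, against 1787 nt for the 167 meiotic genes above the limit, and their coding regions were no shorter, at 1152 against 981 nt. Introns were annotated in 11 of the 55 uncharacterised near-silent genes and in 23 of the 39 meiotic ones, against 34.3% and 49.7% of those above the limit.

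The longest near-silent gene was mug62, which encodes a putative AMP-binding enzyme (4796 nt), with 0 and 2 reads. It was followed by the amino acid permease gene meu22 (3698 nt, 3 and 5), the protein kinase gene ppk31 (3232 nt, 3 and 3), pma2, the second plasma membrane proton pump (3123 nt, 2 and 4), and mpf1 (2800 nt). The shortest after SPAC11D3.20 were both Mi copies (129 nt), SPCC4G3.20 (171 nt, 1 and 2) and SPBC3E7.17 (183 nt, 2 and 1). How well molecules this short were recovered in the libraries was not tested.

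**Figure D2:**
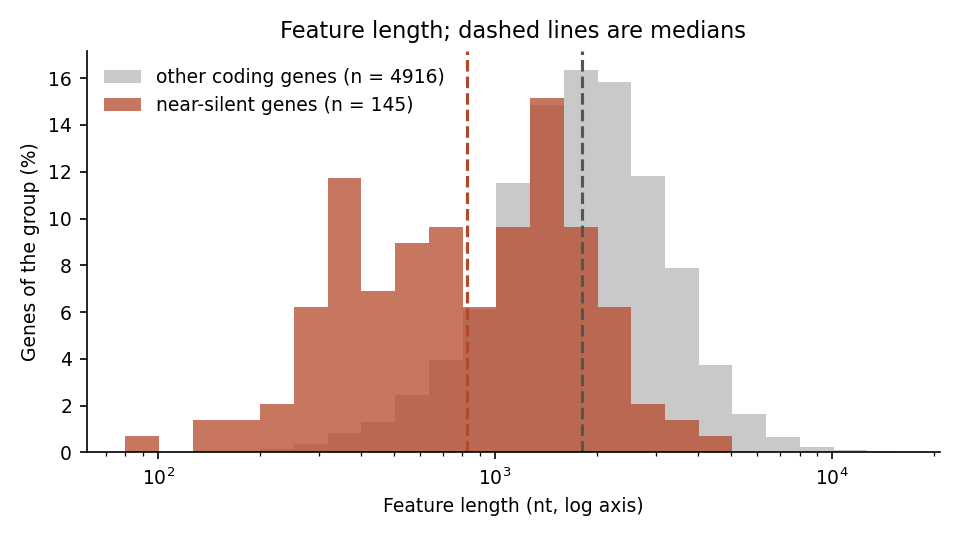
Feature length on a log axis (horizontal, nt) against the share of genes of each group (vertical, %) for the 145 near-silent and 4916 other coding genes. The dashed medians stand at 824 and 1806.5 nt, and the near-silent genes spread over short lengths that few other genes have.

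The near-silent genes lay on all 3 chromosomes: 61 of 2297 coding genes outside the end regions on I, 55 of 1836 on II and 29 of 928 on III. They were more frequent beside the excluded ends. Between 60 and 120 kb from an end of chromosome I or II, 19 of 78 coding genes (24.4%) were near-silent, against 2.53% of the 4983 elsewhere. The latter include the ends of chromosome III, which the rule did not leave out. There, SPCP20C8.03 and new22 formed a run of 2, at 32.6 and 36.4 kb from an end. The coding genes next to a near-silent gene were not low, with a median of 291.5 reads for the mean of both neighbours, against 335 for the neighbours of other genes.

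Another near-silent gene stood within 10 kb of 46 of the 145 (31.7%), and a near-silent gene stood within 10 kb of 20.7% of the other coding genes. The runs of 6 and of 4 genes given below lie 60 to 120 kb from a chromosome end, and their genes are among the 46. In that stretch 24.4% of the coding genes were near-silent, and the share within 10 kb was not computed without it. In map order, 123 near-silent genes were isolated and 22 lay in 8 runs of 2 or more. The longest run comprised 6 genes over 8.30 kb of chromosome II (positions 60553 to 68852), beside the end region. It held SPBPB21E7.02c, of the phosphoglycerate mutase family, SPBPB21E7.10, SPBPB21E7.05 and the pseudogene SPBPB21E7.06, all at 0. It also held SPBPB21E7.11 (3 and 2) and cmt2, for a catechol O-methyltransferase (2 and 5). The flank toward the chromosome end, the enolase paralog gene eno102, had 2 and 2 reads but lies inside the excluded 60 kb, so the run was bounded there by the rule. On its other side aes1 had 143 and 162.

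The second run comprised 4 genes over 6.45 kb near the right end of chromosome I (positions 5496844 to 5503291). SPAC869.09, of the Con-6 family, had 1 and 0 reads, the protein repair methyltransferase gene pcm2 3 and 1, and mel1, for the melibiase that splits the sugar melibiose, 1 and 1, and hry1 had none. It was flanked by the proline transporter gene put4 (583 and 558) and by the sulfate transporter gene sul2 (576 and 589). Beyond sul2 followed a run of 2, the formamidase-like SPAC869.04 (0 and 0) and the urea transporter gene SPAC869.03c, before yhb1 (101 and 87), for a nitric oxide dioxygenase. Low and high genes thus alternated over this stretch.

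The first run of 2 on chromosome I, at positions 74452 to 77931, held the uncharacterised SPAPJ695.02 (1 and 0) and SPAPJ695.01c (0 and 0). Away from the ends, mfc1 and SPAPB1A11.02 were adjacent, and SPAPB1A11.03 lay within the opposite-strand gene mca1 (119 and 101), which followed them. SPAC9E9.01 (2 and 1) and SPAC9E9.17c (4 and 0) formed a further run of 2 on chromosome I. On chromosome II, apc13 (1 and 5) and SPBC28E12.02 (0 and 0) formed another.

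**Figure D3:**
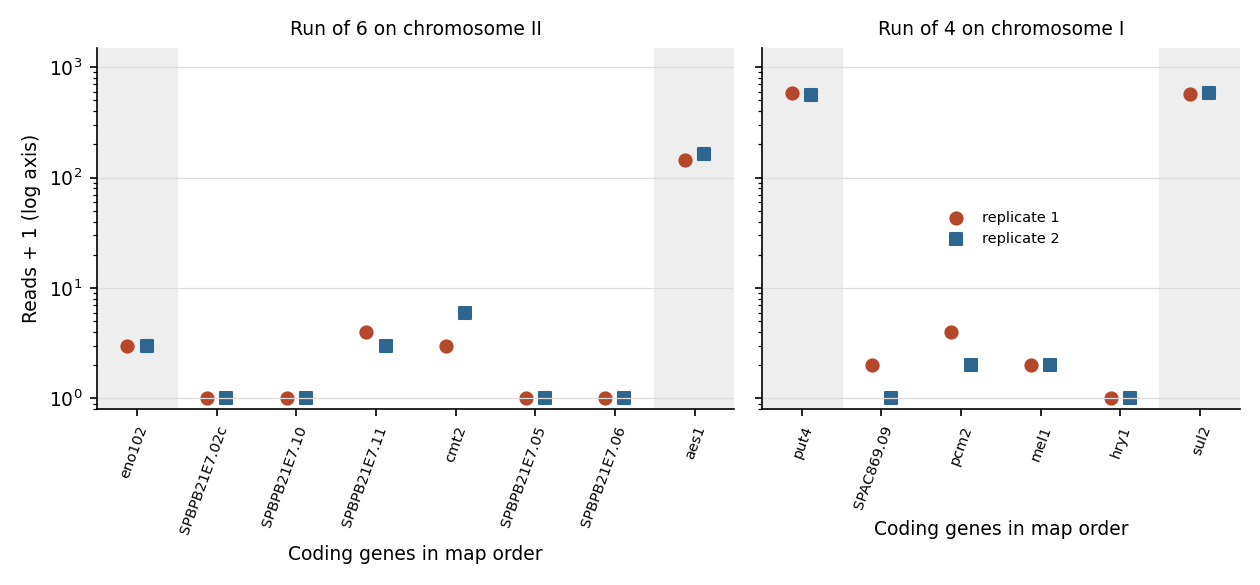
Reads plus 1 (vertical, log axis) of each coding gene in map order (horizontal) over both longest runs, for replicate 1 (circles) and replicate 2 (squares). Shaded columns are the flanking genes, and all 10 genes of the runs have at most 5 reads per library, whereas put4 and sul2 have over 500.

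Antisense RNAs were the readout of these loci that the rule did not use. Of the 145 genes, 75 (51.7%) overlapped an annotated SPNCRNA, a non-coding RNA, on the opposite strand, against 76.6% of the other coding genes. The difference was largest in long genes, at 52.7% against 80.6% for 1200 nt or more. From 600 to 1200 nt the shares were 59.5% and 66.9%, and under 600 nt 24 of 53 genes (45.3%) against 114 of 228. The class of 1200 nt or more has no upper limit, and lengths were not matched within it. With an overlap of at least 50% of the coding feature the shares were 40.0% and 34.5%.

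Where an antisense RNA was annotated, its median count was higher for the near-silent genes, although rows without reads were not rarer. No antisense read was found for 15 of 75, against 631 of 3767 other coding genes with such a row. The most-read antisense row of these 75 genes had a median of 10 summed reads, against 4 for the others. At least 100 reads were found in 17 cases, 11.7% of the 145, against 2.91% of the other coding genes, and all 17 covered at least 50% of the gene (11.7% against 1.67%). At a level of 10 reads the shares were 27.6% and 25.9%. The counting rule is not stated, but in 25 pairs of features nested on the same strand, where the inner feature had at least 10 reads and at least 50% of the outer count, the outer count was never below the inner count in either library. A read of a neighbour on the same strand may thus be counted in the antisense row too, which was not tested for partial overlaps. Of the 17 RNAs, 6 overlapped a coding gene on their own strand. Without such cases the shares at 100 reads were 7.59% (11 genes) and 1.79%. Of the 17 genes, 7 had a meiotic name or product, beside 39 of all 145 near-silent genes (26.9%). Among the 143 other coding genes at this level, 7 had one. The name rule misses dmc1, which is also among the 17.

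The highest antisense counts were those over SPAC1834.13, an uncharacterised gene with 4 and 4 reads. Its antisense SPNCRNA.1018 had 1345 and 1331 reads (105 ± 0.927 CPM, SD, n = 2) and spanned the whole gene, but it also overlapped pex7, with 4745 summed reads, by 99 nt on its own strand. meu26, with 3 and 3 reads, lay opposite SPNCRNA.827, with 959 and 1043, which overlapped tif212 by 67 nt. rec7, with 1 and 5 reads, lay opposite SPNCRNA.1203, with 361 and 311, which overlapped tol1 by 92 nt. Reads of the 3 neighbours may be part of these counts, and their share was not tested.

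Further antisense RNAs overlapped no coding gene on their own strand. dmc1 had 2 and 0 sense reads and 135 and 114 reads of SPNCRNA.904 (9.78 ± 1.01 CPM, SD, n = 2), which covered the whole gene. spo4 had no sense read and 118 and 117 reads of SPNCRNA.1644 (9.23 ± 0.0942 CPM). SPBC28E12.02 also had no sense read, and its antisense SPNCRNA.1469 had 100 and 104. In each of these 3 genes the antisense RNA spanned the whole coding feature in map positions and exceeded the sense reads in both libraries.

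SPCC1840.13, with 2 and 0 reads, lay opposite SPNCRNA.1278, with 172 and 185. SPBC3D6.16 had no sense read and lay opposite SPNCRNA.570 with 174 and 130, which shares 444 nt with SPBC30B4.09 on its own strand. The remaining 9 of the 17 had 107 to 172 antisense reads, and included ppk31, meu17, meu14, pal2, mug95 and the actin-like arp10. Among these 9, the RNA opposite meu17 shares 50 nt with ilv6 (3363 summed reads) on its own strand. That opposite akr7 shares 10 nt with emc4. In all, 51 near-silent genes had more antisense than sense reads, 46 of them in both libraries. This count is partly fixed by the rule, which keeps the sense reads low: among the other coding genes the count was 136.

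**Figure D4:**
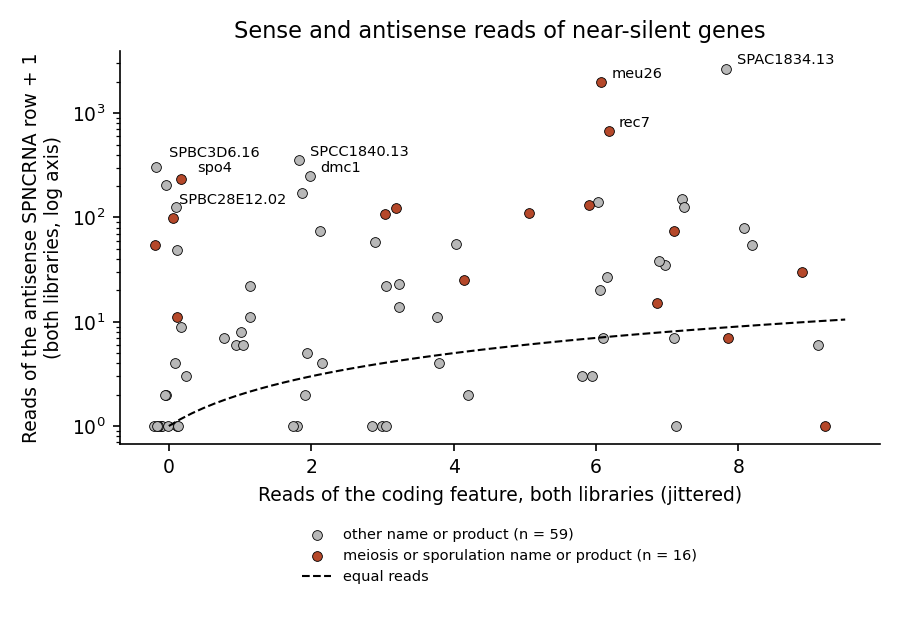
Reads of the coding feature (horizontal, both libraries, jittered) against reads plus 1 of its most-read antisense SPNCRNA row (vertical, log axis) for the 75 near-silent genes that have one. Dark points have a meiosis or sporulation name or product, the dashed curve marks equal reads, and the 8 genes with the most antisense reads are named, from SPBC28E12.02 at 204 to SPAC1834.13 at 2676.

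Promoters were searched on both strands for GTAAACA in the 300 nt from 250 nt before to 50 nt after the feature start. A match was found for 47 of the 145 near-silent genes (32.4%), against 16.2% of the other coding genes and 16.7% of all. The matches were concentrated in the meiotic genes. Of the 39 near-silent genes with a meiotic name or product, 27 (69.2%) had one, against 58 of the 167 meiotic genes above the limit (34.7%). Of the other 106 near-silent genes, 20 (18.9%) had one, against 15.6% of the other coding genes without such a name. These 20 include the meiotic genes dmc1 and moa1, which the name rule misses. They also include SPAC16E8.05c, which the rule misses because only its product text holds the name mde1.

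The lists gave the same order, but they are not independent of the name group. Among their near-silent genes, only dmc1, moa1 and spn6 lack a meiotic name or product. A match was present in all 7 near-silent regulators, the genes whose sequences are shown above together with rec7, mde2, dmc1 and meu14, and in 3 of the 7 regulators above the limit. Over the 3 meiotic lists it was present in 11 of 14 near-silent genes and in 14 of 38 others. The near-silent genes without a match were rec15, rec27 and spn6. Of the wtf genes, neither near-silent member had a match and 1 of the 23 others had.

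Because many near-silent features began at the start codon, the search was repeated in the 500 nt before it. GTAAACA was then found for 71.8% of the near-silent meiotic genes, 46.1% of the meiotic genes above the limit, 29.5% of the other near-silent genes and 22.3% of the rest. Upstream of the feature start, 52 matches with both flanks in the window lay in 41 near-silent genes, at a median of 97.5 nt, 22 in the forward and 30 in the reverse direction. More than 1 was found in 10 genes, among them spo4, spo6, meu14, fzr3 and mde5.

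Other motifs did not differ in this way. GTAAATA, the variant of the Mei4 core, was found for 17.9% of the near-silent and 16.4% of the other coding genes. TTCTTTGTT, the TR box of the mating factor Ste11, was found for 1.38% and 2.01%. TGACGT, the core bound by the stress factor Atf1, was found for 7.59% and 5.86%. Each motif was searched by itself, so that matches of different motifs may overlap.

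**Figure D5:**
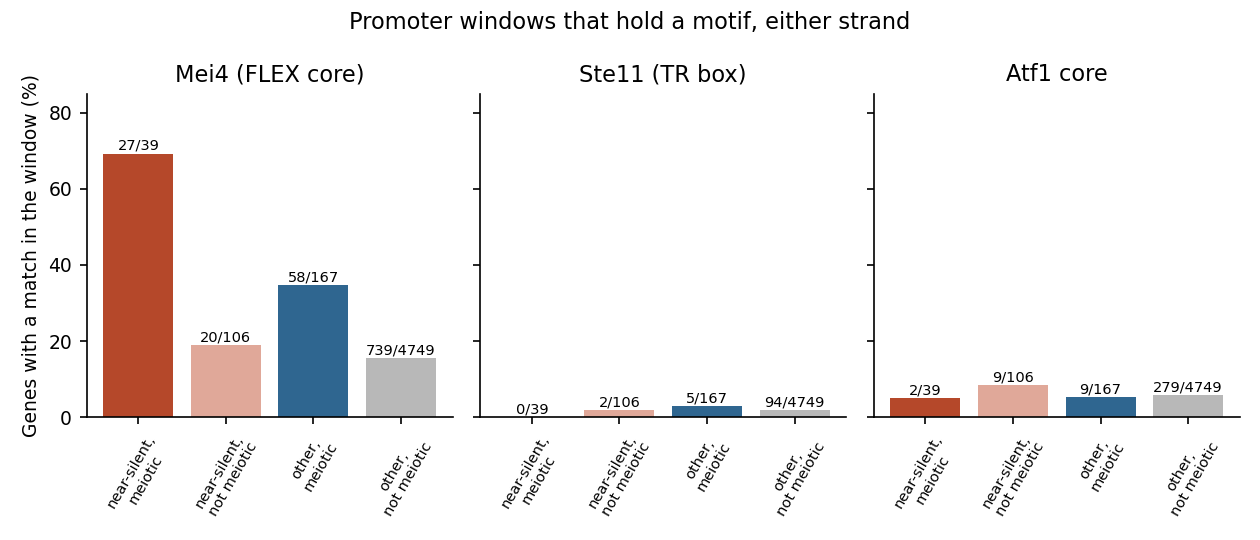
Share of genes (vertical, %) whose promoter window holds the Mei4, Ste11 or Atf1 motif on either strand, for near-silent and other coding genes with and without a meiosis or sporulation name or product. Labels give genes with a match over all genes of the group, and the Mei4 panel shows 27 of 39 for the near-silent meiotic genes against 58 of 167 for the other meiotic genes.

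TNAAAC, the hexamer bound by Mmi1, was counted on the sense strand over each feature, introns included. Near-silent meiotic genes had a median of 2.48 per kb, other near-silent genes 1.56, meiotic genes above the limit 1.85 and the remaining coding genes 1.64. In copies per gene the meiotic groups did not differ in this way. Both had a median of 4, and 20.5% of the near-silent and 21.6% of the others had at least 7. The median was 1 in the other near-silent genes and 3 in the remaining coding genes. The highest densities among the listed genes were in rec27, with 9 copies (14.0 per kb), moa1, with 7 (13.5 per kb), and mcp6, with 9 (9.15 per kb). Others had few: mde2 had none, and rem1, mfr1 and meu14 had 1 each. Several genes with more copies lay above the read limit, among them rec8 with 16, ssm4 with 13 and mei4 with 11. A high count of TNAAAC and fewer than 10 reads thus did not always go together.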

How the data were processed

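Total RNA of 2 replicate cultures was rRNA-depleted, polyadenylated in vitro and sequenced with the Direct RNA Sequencing kit. Per the study's methods and labels, reads were base-called with dorado and mapped with minimap2. For the counter, the handling of multi-mapping reads and the build, nothing is given in the sources used here. The deposited values are raw read counts per feature. All were whole numbers: the rounding that estimated counts would need changed 0 of the deposited values. The deposited header is shifted by 1 cell against the values, so columns were aligned by content (end minus start plus 1 equals length).

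Names, products and coding regions came from RefSeq ASM294v3 (144 of the 145 genes matched, 143 with the same interval), and promoter windows were cut from its genome. The meiotic name rule takes symbols starting with mug, meu, mei, mcp, mde, spo, rec, wtf, isp or mfr, or words in the product starting with meio, spor, synap, linear element or forespore. It had been written for these letters anywhere, and was limited to word starts because "transporter" holds "spor". It misses dmc1, moa1 and spn6, which stand in the lists, and SPAC16E8.05c, whose product is given as protein mde1. The list entry hrs1 was read as mcp6, since RefSeq gives the symbol hrs1 to a tRNA ligase. The members and lists were chosen with earlier results of these data known.

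Named genes are the list and wtf members, the 10 longest at 0 reads, the 5 longest and 5 shortest, the 8 with most antisense reads, those of the 3 longest runs, 3 on each side of the limit, the 5 largest library ratios, and product groups of at most 5. Others named were chosen after their values were seen. The antisense row of a gene is the SPNCRNA on the opposite strand, with an overlap of at least 1 nt, that has most reads. The exact binomial test (scipy 1.17.1, statsmodels 0.14.6, Python 3.11.15) was tested on simulated data. Log2 ratios add 0.5 to each count. The alternatives used TMM factors (edgeR 4.0.16) and DESeq2 1.42.0 size factors. Labels give separate biological replicates.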

Additional observations from a re-analysis of the deposited data

How the results depend on the processing

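No paired analysis was possible because both libraries belong to 1 group. The number of near-silent genes stayed within 1.5 times of 145 under every alternative, from 101 (fewer than 5 reads) to 206 (no end region left out), with 138 to 147 for single libraries at fewer than 5 reads. Under fewer than 5 reads, the median length was 649 nt, the antisense share 49.5%, the share with a near-silent gene within 10 kb 24.8% and the meiotic share 24.8%. Under fewer than 20 reads these were 928 nt, 58.3%, 39.7% and 28.1%, and with no end region left out 905.5 nt, 51.9%, 51.9% and 18.9%. Leaving out a replicate gave 806 to 848 nt, 51.4% to 51.7%, 30.4% to 32.0% and 26.5% to 28.3%. An overlap of at least 100 nt gave an antisense share of 50.3%, and of at least 50% of the feature 40.0%. A distance of 5 kb gave 18.6% and of 20 kb 46.2%. Genes with more antisense than sense reads numbered 44 to 51 in all settings.

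Features called different between the libraries numbered 200 (coding only) to 293 (TMM), with 0 near-silent genes called in each. A minimum of 10 reads left none to test. The share of calls higher in replicate 1 was 56.5%, and 83.3% with TMM, 74.6% with DESeq2 size factors and 42.5% over coding features only. Depth limits every level here: at under 10 reads, a near-silent gene's level cannot be ranked against another's.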
